A study of Homo sapiens with 4 samples.

Results

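The 9 genes described here encode the kinase ATR, its partner ATRIP, the proteins known to switch ATR on, and the ring that brings one of them to damaged DNA. They were chosen by symbol (ATR, ATRIP, TOPBP1, ETAA1, RAD17, RAD9A, RAD1, HUS1 and RHNO1) from the 13743 genes of the deposited table, which holds 1 row for each of them. The levels come from cap analysis of gene expression (CAGE), which captures capped RNA and reads its 5′ ends. The samples are 2 wild type samples of UM-UC-3, a human cell line established from a urothelial carcinoma, and 2 samples of a subline of it with acquired cisplatin resistance, grown in DMEM with 10% serum and 5 µM cisplatin. The labels do not give the medium of the wild type cells, so the acquired state and the presence of the drug cannot be told apart. No label says that samples of a group came from separate cultures, and the p-values below reflect no more than the spread among these 4 samples, possibly a technical one. The resistant cells are 1 subline, so what belongs to resistance and what to that subline cannot be told apart either.

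ATR is the kinase that responds to single-stranded DNA at stalled replication forks, such as those that platinum crosslinks cause. ATRIP ties ATR to the protein RPA on that DNA, but the kinase needs a further push from an activator, of which vertebrate cells have TOPBP1 and ETAA1. TOPBP1 is brought to DNA by the 9-1-1 clamp, a ring of RAD9A, RAD1 and HUS1 that RAD17 loads together with the small RFC subunits; RHNO1 binds both the clamp and TOPBP1. ETAA1 binds RPA directly and acts without the clamp.

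CPM here means counts per 1000000 reads in the listed genes of that sample. Taking the smallest step in each column as 1 read, the columns held between 17800730 and 21189219 reads, and 3 reads equal between 0.142 and 0.169 CPM. The 12587 genes that averaged 1 CPM or more were tested with limma on log2(CPM + 1) with Benjamini-Hochberg adjustment, a gene being called at an adjusted p under 0.05. The median gene was 0.09 higher in resistant cells on this log2 scale and 0.02 higher after scaling by trimmed means of M values (TMM), so changes are given under both scalings where the call differs. Over all tested genes, 4221 were called higher and 2724 lower; under TMM scaling the split was 3654 to 3336. Of 15 urothelial and epithelial markers the table lists KRT7, KRT8 and KRT18, with summed levels of 407 and 402 CPM in wild type, against 144 and 139 CPM in resistant samples. KRT18 carried most of this sum (306 and 309 against 90.5 and 85.5 CPM), KRT8 was lower too (95.3 and 87.5 against 43.5 and 43.2 CPM), and KRT7 went the other way (5.32 and 5.56 against 10.1 and 10.0 CPM). The uroplakins UPK1A, UPK1B, UPK2 and UPK3A, KRT20, GATA3, PPARG, FOXA1, KRT5, KRT19, EPCAM and CDH1 are not among the listed genes. All 3 mesenchymal markers are listed. VIM read 1365 and 1336 CPM in wild type, against 1432 and 1343 CPM in resistant samples. CDH2 read 20.1 and 18.5 against 44.4 and 39.8 CPM, and FN1 1.04 and 1.71 against 0.52 and 0.39 CPM. Of 14 markers of leukocytes, endothelium, fibroblasts and red cells, it lists COL1A1 and COL3A1, each under 0.5 CPM.

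CAGE reads come from transcript starts, so stretches just upstream of the RefSeq starts (GRCh38.p14) are shown for the genes on which the results below turn. Windows of 300 bases, from 250 before to 50 after a start, were on hand for 7 of the 9 genes, HUS1 and RHNO1 being the others. Each stretch is printed 5′ to 3′ on the strand of its gene, with motif matches in capitals; a match is a description of the letters, not a bound site.

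The first pair shows the kinase and its partner. The ATR stretch is chr3:142578734-142578883 on the minus strand and ends at the base before the start; capitals mark the ETS motif CCGGAA on either strand. The ATRIP stretch is chr3:48446587-48446736 on the plus strand, upstream of the first of its 2 RefSeq starts; capitals mark CCAAT on either strand.
ATR: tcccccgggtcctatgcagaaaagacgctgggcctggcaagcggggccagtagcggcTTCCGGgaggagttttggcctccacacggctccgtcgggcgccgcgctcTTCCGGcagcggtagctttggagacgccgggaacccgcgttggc
ATRIP: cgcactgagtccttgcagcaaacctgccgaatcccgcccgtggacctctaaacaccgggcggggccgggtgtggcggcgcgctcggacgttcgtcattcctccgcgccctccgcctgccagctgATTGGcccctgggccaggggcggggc

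The activator TOPBP1 is shown at chr3:133661940-133662061 on the minus strand, where the stretch runs 2 bases past the start. Capitals mark the E2F motif, searched as TTTCGCGC, TTTGGCGC, TTTCCCGC and TTTGCCGC on both strands.
TOPBP1: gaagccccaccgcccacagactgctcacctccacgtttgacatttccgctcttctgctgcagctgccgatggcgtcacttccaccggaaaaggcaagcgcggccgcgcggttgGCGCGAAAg

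Of the clamp, RAD9A (chr11:67391816-67391985, plus strand) is shown for its E-boxes, CACGTG, in capitals. RAD1 is shown because its RefSeq start lies near that of BRIX1 on the other strand. The 206 bases at chr5:34915505-34915710, given on the minus strand, lie between these starts, with CCGGAA in capitals on either strand.
RAD9A: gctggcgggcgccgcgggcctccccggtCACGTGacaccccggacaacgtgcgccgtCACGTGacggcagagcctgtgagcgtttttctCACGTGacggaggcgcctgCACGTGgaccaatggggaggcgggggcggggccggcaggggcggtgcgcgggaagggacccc
RAD1 and BRIX1: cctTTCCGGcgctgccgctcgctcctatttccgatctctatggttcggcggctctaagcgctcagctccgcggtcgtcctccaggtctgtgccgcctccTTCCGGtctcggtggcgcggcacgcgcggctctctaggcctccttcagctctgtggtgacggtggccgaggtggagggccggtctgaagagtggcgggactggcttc

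The RAD9A window held 4 E-boxes, which began 142, 113, 81 and 62 bases before its start. Of 35116 RefSeq windows of this length, 5 (0.0142%), that of RAD9A among them, held 4 or more, and 7.26% held at least 1. The RAD9A window was 75.7% G and C, beside a median of 58.7% over all windows. The shares given here were not matched for base composition. The E2F motif was found in the TOPBP1 window alone among the 10 windows of these genes, beside 3.31% of all windows. CCGGAA stood 2 times each in the windows of ATR, TOPBP1 and RAD1, beside 17.2% of all windows with at least 1. The motif ANATGGCGG, which YY1 recognises, was present in the ETAA1 and RAD1 windows, beside 2.75% of all. CCAAT was found in windows of ETAA1, ATRIP, RAD17 and RAD9A, beside 34.6% of all. The GC box GGGCGG stood in 7 of the 10 windows (45.0% of all). TTTGAA (15.2% of all) and TATAAA (11.5%) were each found in 1 window, both times the second of RAD17. No window held TGCGCA, the core bound by NRF1, or the interferon-response motif TTTCNNTTT, beside 8.24% and 10.5% of all. Each motif was searched on both strands. A base can belong to 2 motifs.

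Most of the machinery that activates ATR was higher in resistant cells. Of the 9 genes, 7 were called higher and 0 lower, beside 33.5% of all tested genes called higher and 21.6% lower. Under TMM scaling 6 were called higher and 0 lower, beside 29.0% and 26.5%. All 9 had both resistant samples above both wild type samples, an order found in 46.1% of tested genes. Their median log2 fold change was 0.45, against 0.09 for all tested genes. All 9 passed the filter on low values. The 9 genes were chosen with earlier results of these data known, so these counts are a description only. In these bulk samples, more cells that express a gene and more RNA per cell cannot be told apart.

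**Figure D1:**
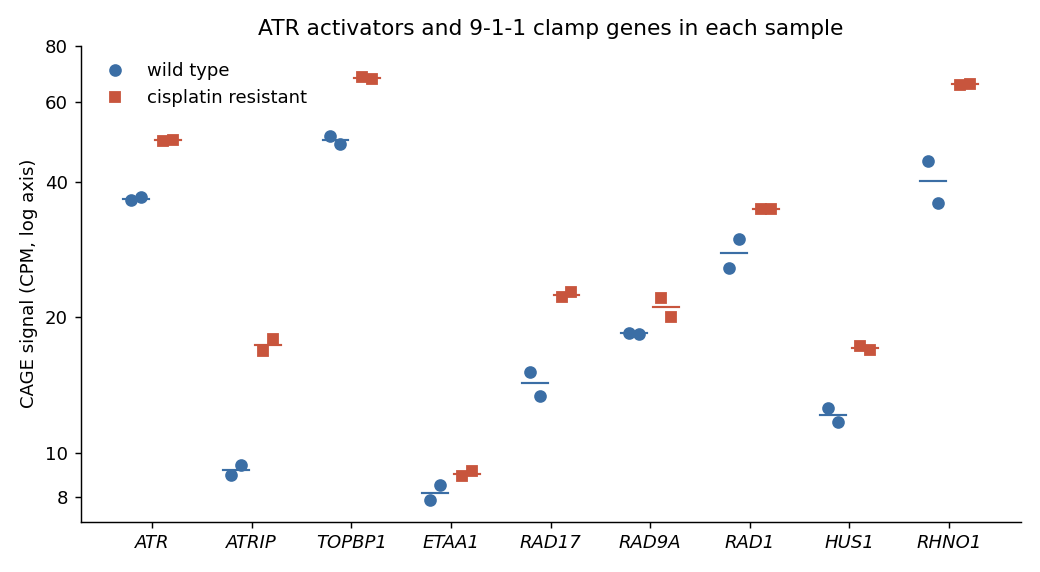
CAGE signal of the 9 genes in each sample, in CPM on a log axis. Circles are the 2 wild type samples, squares the 2 resistant samples and short lines the group means. Resistant squares stand above wild type circles for every gene, by 0.39 CPM for ETAA1 and by 21.3 CPM for RHNO1.

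The kinase and its partner both rose; whether the partner rose by more was not tested. ATR (ENSG00000175054.16) read 36.4 and 37.0 CPM in wild type, against 49.3 and 49.5 CPM in resistant samples. The groups were well apart and the samples of each nearly coincided. The mean went from 36.7 ± 0.382 to 49.4 ± 0.156 CPM (SD, n = 2 each) or 1.35 times the former, with a log2 fold change of 0.42 and a standard error of 0.07 (limma, adjusted p = 0.00178). ATRIP (ENSG00000164053.21), which carries ATR to RPA, read 8.94 and 9.42 CPM in wild type, against 16.9 and 17.9 CPM in resistant samples. Its mean went from 9.18 ± 0.339 to 17.4 ± 0.757 CPM (SD, n = 2 each) or 1.89 times the former, the largest ratio of the 9. On the log2 scale the change was 0.85, standard error 0.11 (limma, adjusted p = 0.000266), higher than in 93.9% of tested genes. Behind ATRIP stand 334 wild type and 676 resistant reads, whose ratio was 1.89, with an exact (Clopper-Pearson) 95% interval of 1.66 to 2.16. Intervals on reads cover counting error only.

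The annotation places TREX1, an exonuclease that degrades cytosolic DNA, inside ATRIP on the same strand. TREX1 read 5.37 and 3.80 CPM in wild type, against 8.07 and 8.88 CPM in resistant samples (limma, adjusted p = 0.00367), a ratio of 1.85. Both genes of the overlap were thus called higher, and the sources used here do not give how the authors' counting divided their reads.

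The direct activators did not both pass. TOPBP1 (ENSG00000163781.14), a scaffold of BRCT repeats with an ATR-activating domain, read 50.5 and 48.5 CPM in wild type, against 68.2 and 67.6 CPM in resistant samples. This is a step from 49.5 ± 1.44 to 67.9 ± 0.424 CPM (SD, n = 2 each) or 1.37 times the former. On the log2 scale the change was 0.45, standard error 0.07 (limma, adjusted p = 0.000992). ETAA1 (ENSG00000143971.9), the activator that binds RPA, read 7.84 and 8.48 CPM in wild type, against 8.87 and 9.10 CPM in resistant samples. The resistant samples were higher by a narrow margin. Its log2 fold change of 0.13 had a 95% interval of -0.14 to 0.39 and did not pass (limma, adjusted p = 0.379). With 297 wild type and 350 resistant reads, the exact interval of the read ratio ran from 0.94 to 1.29.

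Of the clamp, HUS1 and RAD1 were called and RAD9A was not. HUS1 (ENSG00000136273.13) read 12.6 and 11.7 CPM in wild type, against 17.2 and 16.9 CPM in resistant samples, 1.41 times the wild type level. On the log2 scale the change was 0.46, standard error 0.10 (limma, adjusted p = 0.00515). Without resistant replicate 1 the adjusted p was 0.0568 in limma, at a log2 fold change of 0.45. RAD1 (ENSG00000113456.19) read 25.7 and 29.8 CPM in wild type, against 34.7 and 34.8 CPM in resistant samples. The wild type samples differed by more than counting error (ratio of replicate 1 to replicate 2 of 0.86, exact 95% interval 0.76 to 0.98), while the resistant samples coincided. RAD1 was 1.25 times the wild type level, with a log2 fold change of 0.32 and a standard error of 0.09 (limma, adjusted p = 0.0197). This call ended under TMM scaling (log2 fold change 0.25, limma, adjusted p = 0.0561) and in 5 other alternatives. RAD9A (ENSG00000172613.8), the subunit whose phosphorylated tail TOPBP1 binds, read 18.5 and 18.3 CPM in wild type, against 22.1 and 20 CPM in resistant samples. Its log2 fold change was 0.18 with a 95% interval of -0.04 to 0.40 (limma, adjusted p = 0.139), and it passed in 0 of 14 alternatives. RAD9A had 670 wild type and 824 resistant reads, and the exact interval of their ratio ran from 1.04 to 1.27, which covers counting error only. Neither RAD9B nor HUS1B, the paralogs of clamp genes, is among the listed genes.

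The loader and the bridge were both called higher, with larger fold changes than the 3 clamp genes, a difference that was not tested. RAD17 (ENSG00000152942.19), the large subunit of the clamp loader, read 15.1 and 13.4 CPM in wild type, against 22.1 and 22.7 CPM in resistant samples. It went from 14.3 ± 1.24 to 22.4 ± 0.403 CPM (SD, n = 2 each) or 1.57 times the former, with a log2 fold change of 0.62 (limma, adjusted p = 0.00118). RHNO1 (ENSG00000171792.11), which links the clamp to TOPBP1, read 44.4 and 35.9 CPM in wild type, against 65.7 and 66.0 CPM in resistant samples. The wild type samples stood apart from each other (ratio of replicate 1 to replicate 2 of 1.24, exact 95% interval 1.11 to 1.37), yet both lay over 20 CPM under the resistant samples. RHNO1 rose 1.64 times, with a log2 fold change of 0.71 and a standard error of 0.10 (limma, adjusted p = 0.00061).

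**Figure D2:**
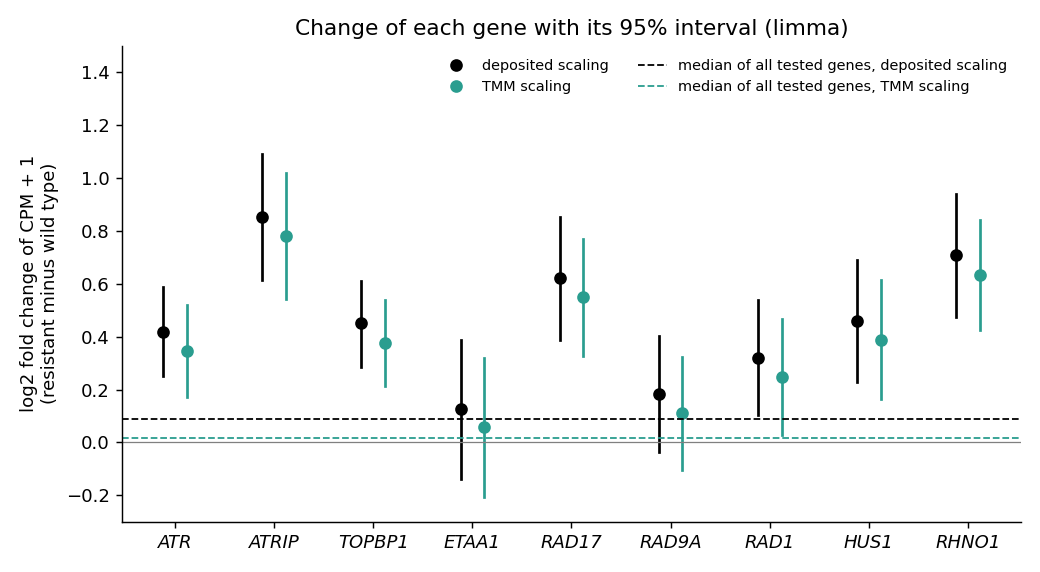
Log2 fold change of each gene (resistant minus wild type, on log2 of CPM + 1) with its 95% interval from limma, under the deposited scaling in black and TMM scaling in green. Dashed lines give the median of all tested genes, 0.09 and 0.02; the intervals of ETAA1 and RAD9A span 0 under both scalings.

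Ratios between partners within a sample do not depend on the scaling between samples. They are given as log2 values of the CPM ratio, with no test: the exact permutation test, which the design names for a single value, cannot go below a two-sided p of 0.333 with 2 samples against 2. The ratio of ATRIP to ATR was -2.03 and -1.97 in wild type and -1.55 and -1.47 in resistant samples, a shift of 0.49 towards ATRIP. That of TOPBP1 to ATR was 0.47 and 0.39 in wild type and 0.47 and 0.45 in resistant samples, which overlap. The ratio of ETAA1 to TOPBP1 was -2.69 and -2.51 against -2.94 and -2.89, a shift of -0.32 away from ETAA1. Thus both resistant samples held more ATRIP per ATR and less ETAA1 per TOPBP1 than either wild type sample.

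Within the ring, the ratio of RAD9A to HUS1 was 0.56 and 0.65 in wild type and 0.36 and 0.24 in resistant samples, a shift of -0.30. Ratios to RAD1 overlapped between the groups, for RAD9A (-0.47 and -0.70 against -0.65 and -0.80) as for HUS1 (-1.03 and -1.34 against -1.01 and -1.04). The ratio of RHNO1 to RAD9A went from 1.26 and 0.97 in wild type to 1.57 and 1.72 in resistant samples. RAD17 gained on the mean of its partners RFC2 to RFC5, from -2.12 and -2.19 to -1.88 and -1.73.

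**Figure D3:**
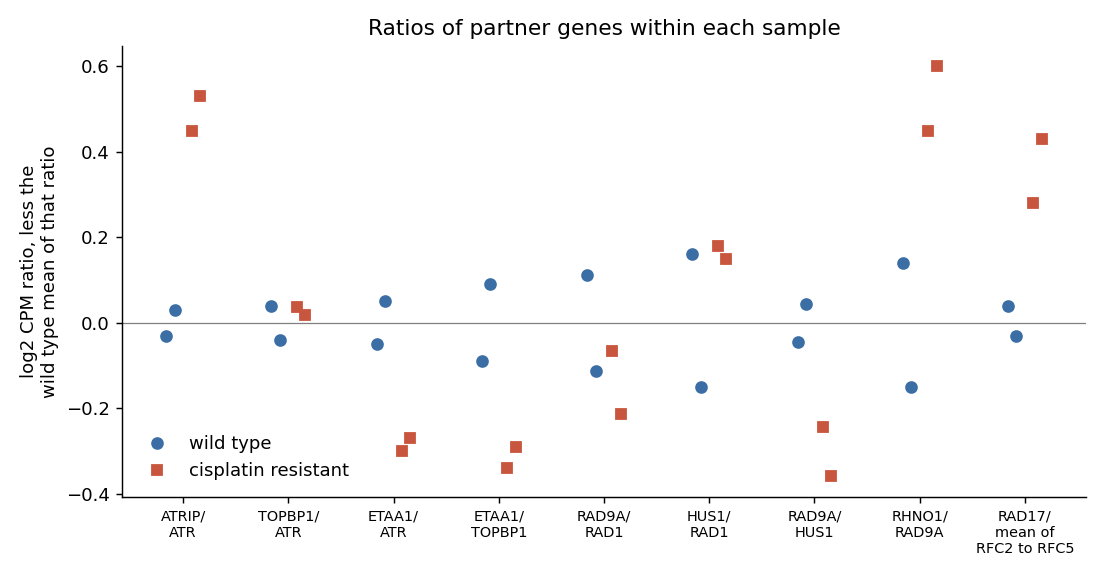
Log2 CPM ratio of each pair in each sample, less the wild type mean of that ratio; circles are wild type and squares resistant samples. The groups overlap for TOPBP1 to ATR and for both ratios to RAD1 and are apart for the other pairs. Several pairs share a gene, and how often the groups are apart among other pairs of genes was not computed.

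Several of these genes start near a neighbour on the other strand. RAD17 and TAF9, a subunit of the general transcription factor TFIID, have their nearest RefSeq starts 6 bases apart. TAF9 read 160 and 137 CPM in wild type, against 214 and 204 CPM in resistant samples (limma, adjusted p = 0.00146). AK6, an adenylate kinase gene that faces RAD17 as well, read 159 and 136 against 213 and 202 CPM, values so near those of TAF9 that the rows cannot be taken as separate measurements. RHNO1 faces FOXM1, a transcription factor of G2 and mitosis. FOXM1 read 55.7 and 43.5 CPM in wild type, against 86.7 and 93.8 CPM in resistant samples, a ratio of 1.82 (limma, adjusted p = 0.000377). As with RHNO1, wild type replicate 1 was the higher of the wild type samples. TULP3, which overlaps RHNO1 on the same strand, read 81.8 and 74.6 against 104 and 103 CPM. BRIX1, a ribosome biogenesis factor that starts 206 bases from RAD1 across the stretch shown above, read 76.1 and 91.0 CPM in wild type, against 102 and 102 CPM in resistant samples. BRIX1 was called (limma, adjusted p = 0.0266) but not under TMM scaling (limma, adjusted p = 0.087), as was the case for RAD1, and in both genes wild type replicate 2 was the higher. TFP1, a pseudogene, overlaps TOPBP1 on the other strand and faces it. TFP1 read 3.67 and 4.24 CPM in wild type, against 4.72 and 4.27 CPM in resistant samples, and was not called (limma, adjusted p = 0.377). RAD9A is overlapped on the other strand by CLCF1 and AP003419.1, whose rows are identical (14.2 and 11.3 against 20.1 and 20.1 CPM), by PPP1CA (243 and 224 against 283 and 295 CPM) and by POLD4 (65.6 and 48.7 against 50.2 and 58.3 CPM). The sources used here do not give whether reads were assigned by strand, so facing and overlapping genes may not have been separated.

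The surroundings of the genes differed. For each gene the 20 nearest tested genes on either side in GENCODE 29 were taken, a description added after the values were known. Around RHNO1, near a chromosome end with 35 such neighbours, 28 were called higher and 2 lower, with a median log2 fold change of 0.45. Around RAD17 27 of 40 were higher and 1 lower (median 0.34), around TOPBP1 25 and 2 (median 0.35) and around ATR 20 and 4 (median 0.24). Among the neighbours of each of these 4 genes at least 20 were thus higher, beside 33.5% of all tested genes. Neighbours were counted row by row, so TAF9 and AK6 both count beside RAD17. TOPBP1 and ATR lie on the same chromosome, and whether their neighbours overlap was not examined. Each of the genes described here lay above the median of its neighbours. Around ATRIP 9 of 40 neighbours were higher and 3 lower, the median was 0.07, and 2 neighbours exceeded ATRIP. RHNO1 was exceeded by 5 of 35, ETAA1 by 6 of 40, RAD1 and RAD17 by 8 of 40 each, and the other genes by 10 to 15 of 40. RAD1 had 7 higher and 13 lower neighbours (median -0.08), RAD9A 11 and 13 (median -0.06), and HUS1 17 and 6 (median 0.11). Around ETAA1 15 of 40 were lower and 2 higher (median -0.20). Over all tested genes 21.6% were called lower. The part of regional change in the levels of these genes was not tested.

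**Figure D4:**
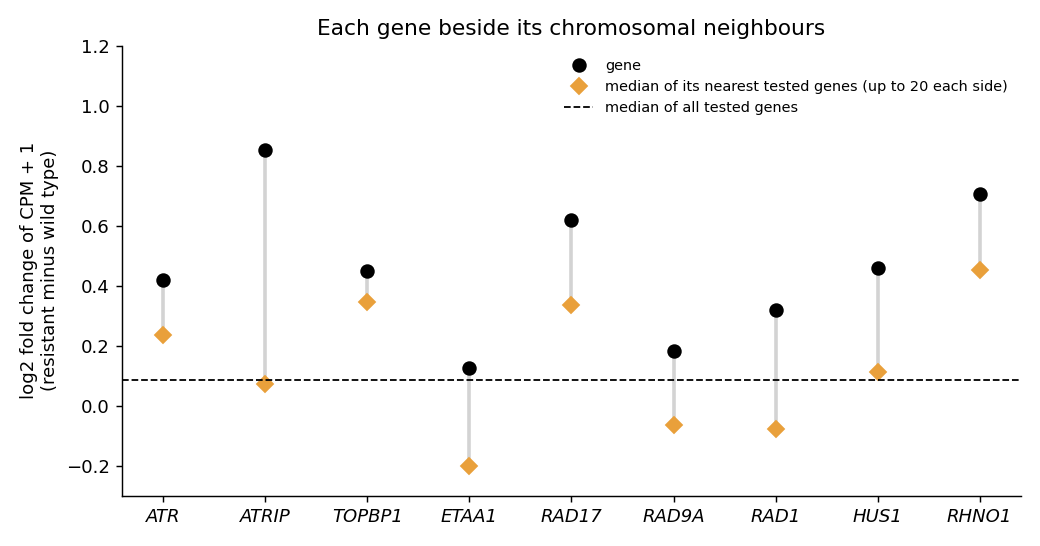
Log2 fold change of each gene (black circles) beside the median of its nearest tested genes, up to 20 on each side (orange diamonds); the dashed line is the median of all tested genes, 0.09. Diamonds reach 0.45 at RHNO1 and lie below 0 at ETAA1, RAD9A and RAD1.

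Of the steps that surround ATR activation, 3 of 4 small loader subunits, 2 of 3 RPA subunits and 4 of 5 mediators and effector were called higher and 0 lower, under the deposited and under TMM scaling. The shares over all tested genes were 33.5% higher and 21.6% lower, and 29.0% and 26.5% under TMM scaling; with so few genes a list, the counts are a description only. Of the small loader subunits, RFC2, RFC3 and RFC4 were called higher and RFC5 was not. RFC3 read 29.9 and 24.2 CPM in wild type, against 45.0 and 42.3 CPM in resistant samples, whereas RFC5 read 69.9 and 60.7 against 70.1 and 61.2 CPM. In RPA, which coats single-stranded DNA, RPA2 and RPA3 were called higher and the large subunit RPA1 was not (limma, adjusted p = 0.978). RPA2 read 41.0 and 40.3 CPM in wild type, against 64.4 and 63.4 CPM in resistant samples. CHEK1, the kinase that ATR switches on, read 33.9 and 33.7 CPM in wild type, against 43.8 CPM in both resistant samples (limma, adjusted p = 0.004). CLSPN, which presents CHEK1 to ATR, was 1.47 times and TIPIN 1.36 times the wild type level, and TIMELESS did not pass (limma, adjusted p = 0.116).

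The other clamp and loaders, the related kinases and the ATM branch were more divided. PCNA, the replication clamp, read 246 and 263 CPM in wild type, against 323 and 298 CPM in resistant samples (limma, adjusted p = 0.00964). Of the 6 genes of its list, 3 were called higher and 2 lower, but 1 higher and 2 lower under TMM scaling, near the shares over all tested genes (29.0% and 26.5%). CHTF18 and DSCC1, subunits of an alternative PCNA loader, fell, with wild type levels 1.51 and 1.55 times the resistant ones. CHTF8, of the same list, went the other way, from 69.2 and 71.6 CPM in wild type to 87.8 and 82.0 CPM in resistant samples. It was called higher (limma, adjusted p = 0.0131) but not under TMM scaling (limma, adjusted p = 0.052). Of 8 related kinases and their assembly factors 2 were higher (TRRAP, a pseudokinase, and MTOR) and 2 lower, MTOR losing its call under TMM scaling (limma, adjusted p = 0.172). PRKDC, the kinase of end joining, fell from 209 and 212 CPM in wild type to 118 and 117 CPM in resistant samples (limma, adjusted p = 2.15e-05). ATM, the kinase that responds to double-strand breaks, read 23.1 and 22.1 against 23.5 and 23.3 CPM (limma, adjusted p = 0.662). In the ATM branch 5 of 9 were higher, or 3 under TMM scaling, and NBN was lower under both; the count under TMM scaling is close to the 29.0% of all tested genes. MRE11 and RAD50, the partners of NBN, were both higher under the deposited scaling. MRE11 read 23.8 and 24.6 against 30.5 and 29.3 CPM and lost its call under TMM scaling (limma, adjusted p = 0.0516). In these 6 lists together 19 of 35 genes were higher and 5 lower, with a median log2 fold change of 0.27, and 14 and 5 under TMM scaling. Over all tested genes the shares were 33.5% higher and 21.6% lower, and 29.0% and 26.5% under TMM scaling, so the excess of higher calls was smaller under TMM scaling. Of the 5 lower genes, PRKDC, NBN and DSCC1 lie on chromosome 8 in the annotation. TTI2, also in these lists, lies there too and was not called (limma, adjusted p = 0.59). The share of lower calls over chromosome 8 was not computed. The share of cells in S phase was not measured, and its part in the levels of PCNA, FOXM1 and the 9 genes was not tested.

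**Figure D5:**
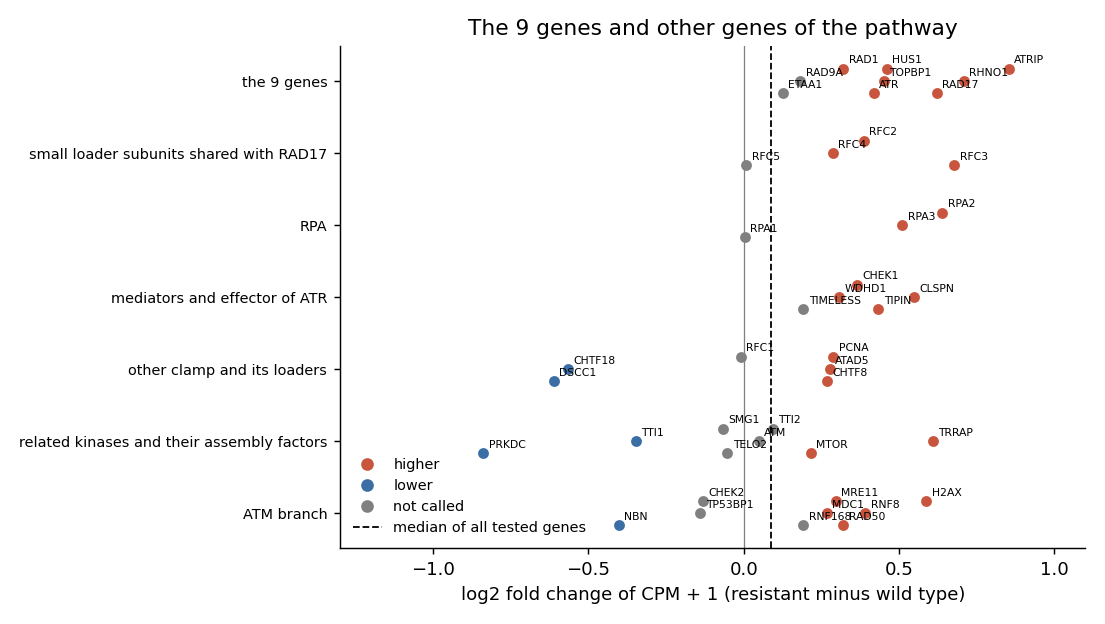
Log2 fold change of the 9 genes (top row) and of the other genes in 6 pathway lists; red points were called higher, blue lower and grey not called (limma, adjusted p under 0.05), and the dashed line is the median of all tested genes, 0.09. The 9 genes span 0.13 for ETAA1 to 0.85 for ATRIP; PRKDC at -0.84 is the lowest point.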

How the data were processed

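Per the file name, the authors deposited CPM values, 1 column per sample, and each column is scaled to 1000000 over the 13743 genes listed. The submitters' processing notes name BWA 0.5.9, and list hg19 as well as mm9 without a role; how reads were counted, with which annotation and by which strand, is not stated in the sources used here. Without a settled build, GENCODE 29 served only for neighbours and chromosomes (99.3% of tested identifiers matched). Promoter sequences are RefSeq's, on GRCh38.p14.

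The comparison used limma 3.58.1 (R 4.3.3), with lmFit and a trended eBayes, for genes averaging 1 CPM or more, on log2(CPM + 1), a scale that understates the change of low genes. The fit ran on all 12587 tested genes. It was first run on simulated data in which far fewer genes changed than were called here, so that run does not cover the present setting. Every value lay within 0.00577 CPM of a whole multiple of its column's step, from which reads were taken for intervals. In resistant replicate 1 only 92.5% of low values lay within 0.1 step, under the 95% required, so no count model was run. That column has the smallest step, 0.0472 CPM, and the rounding of the deposited values alone can exceed 0.1 step there. Alternatives were other pseudocounts, filters, scalings and variance models, a replicate block and leaving out each sample. TMM and median-ratio factors were computed on the deposited values. The members and gene lists were chosen with earlier results of these data known, and all 9 members and all listed genes could be named whatever their values. Facing genes are those whose start lies within 1 kb of a member's start on the opposite strand. Overlapping genes share bases with a member on either strand.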

Additional observations from a re-analysis of the deposited data

How the results depend on the processing

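The number of the 9 genes called higher was 7 under both other pseudocounts (0.1 and 5), both other filters (none, and a mean of at least 5 CPM), without the trend, with the robust trend and with the replicate block. It was 6 under TMM, median-ratio and quantile scaling and between 5 and 7 when 1 sample was left out, and the number called lower was 0 in all 14 alternatives. Same-numbered samples did not deviate together (r = -0.08 across genes), so the block pairs samples that share only a number; it called 4320 genes higher and 2778 lower in the whole table. ATR, ATRIP, TOPBP1, RAD17 and RHNO1 kept their calls in all 14, and ETAA1 and RAD9A had none. RAD1 lost its call in 6: under TMM (limma, adjusted p = 0.0561), median-ratio (0.0653) and quantile scaling (0.159), and without wild type replicate 1 (0.0569), resistant replicate 1 (0.118) or resistant replicate 2 (0.123). HUS1 lost it in 1. The median of all tested genes, 0.09, was 0.018 under TMM, 0.0087 under median-ratio and 0.013 under quantile scaling. Leaving out 1 sample gave 2556 to 4316 genes called higher and 1636 to 2787 lower; the low ends came without resistant replicate 1 (2556 higher) and without resistant replicate 2 (1636 lower), where 1 resistant sample is assumed to vary like the wild type samples. edgeR and DESeq2 were not run: whole reads could be assigned to every value, but in resistant replicate 1 the share of low values within 0.1 step, 92.5%, missed the 95% set for using a count model. ETAA1 had the fewest reads of the 9 genes, 143 to 188 a sample, and whether depth limited its call was not tested.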
